A study of Mus musculus with 6 samples.

Results

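The 9 genes described here were Ifit1, Ifit2, Ifit3, Isg15, Irf7, Irf9, Stat2, Ifi27 and Bst2, which are interferon-stimulated genes. They were taken by symbol from a table of 20950 entries, and each symbol had 1 entry. The RNA came from C2C12, a mouse myoblast line that divides in rich serum and fuses into myotubes when serum is lowered, and it was sequenced in 6 libraries. One library came from growing cells in DMEM with 10% FBS (fetal bovine serum). The other 5 came from cells moved to differentiation medium at high density, with 1 library in 2% HS (horse serum), 1 in 2% HS + exosome, 1 in 0.2% FBS and 2 in 0.2% FBS + exosome. The exosomes, small membrane vesicles, had been isolated from FBS and were added in the amount that 10% FBS holds, so the 10% FBS library had serum exosomes as well. The study asked what serum exosomes do to differentiating muscle cells. No label says that the 2 replicates were separate cultures, and every other condition had 1 library. The p-values from the fit with 1 mean per condition therefore rest on the spread between those 2 libraries only, pooled in large part over all genes.

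Type I interferons bind the receptor pair IFNAR1 and IFNAR2 on the cell surface, which activates the kinases JAK1 and TYK2. These phosphorylate STAT proteins, among them STAT2, which joins IRF9 in a complex named ISGF3. The complex binds interferon-stimulated response elements (ISRE) in front of its target genes, many of which encode proteins that hinder viral growth. Pairs of STAT proteins bind another element, GAS, which serves interferon gamma. The genes of STAT2, IRF9 and IRF7 are themselves raised by interferon, so that the pathway feeds its own supply. Cultured cells keep a low level of many of these transcripts without infection.

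Values were FPKM, read counts divided by transcript length and by library depth. The sums of FPKM lay between 461439 and 515215 in the 6 libraries, and 10731 entries had a mean of at least 1 FPKM, all 9 genes among them. Without counts the depth had to be estimated from the step of low values, which gave about 33700000 to 39400000 reads per library. By that estimate the levels in the 0.2% FBS library stood for roughly 26 reads of Ifit3, 50 of Irf7, 50 of Isg15 and 80 of Ifit1. All 7 myogenic markers (Myod1, Myf5, Des, Myog, Myh3, Ckm and Acta1) had a mean of at least 1 FPKM. Their summed level was 4365 in 10% FBS, 8650 in 2% HS, 7938 in 2% HS + exosome, 9482 in 0.2% FBS, and 4447 and 3360 in the 2 libraries of 0.2% FBS + exosome. More than any other gene, Acta1 made up this sum, with 5322 FPKM in 0.2% FBS. With exosomes in 0.2% FBS, 6 of the 7 were lower in each library (27.5% of all genes were), by 0.23 (Myod1) to 1.58 (Myh3) on the log2(FPKM + 1) scale and none of them called by limma, beside 4.32% of all genes called lower, while Myf5, a factor of undifferentiated myoblasts, rose by 0.96 ± 0.19 (SE, limma adjusted p = 0.0196), beside 8.20% called higher. The part of these shifts in the results on the interferon-stimulated genes was not tested. In bulk RNA, fewer cells with a transcript and less of it per cell cannot be told apart.

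On the GENCODE annotation of GRCm38 (mm10), the Ifit genes are neighbours on the plus strand of chromosome 19, within 99 kb: Ifit2 at chr19:34550694-34576419, Ifit3 at chr19:34583531-34588731 and Ifit1 at chr19:34640871-34650009. Isg15 lies at chr4:156199424-156200818 on the minus strand and Bst2 at chr8:71534255-71537456 on the minus strand. Stat2 lies at chr10:128270559-128292849 on the plus strand, and Ifi27 at chr12:103434211-103440239 on the plus strand. Irf7, at chr7:141262706-141266481 on the minus strand, overlaps Phrf1 on the other strand. Irf9, at chr14:55603571-55610030 on the plus strand, overlaps Rnf31 on the same strand. How the counting used strand is not given in the sources used here, so reads of Phrf1 in the overlap may be part of the Irf7 value. Of the 75-base stretches of the Ifit3 transcript, 41.1% also occur in its near copy Ifit3b, against 5.19% for Ifit1 with Ifit1bl2 and 1.70% for Irf9 with Rnf31, so the Ifit3 value in particular is uncertain.

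Promoter sequence shows which of these genes carry the letters of the element that ISGF3 binds. The RefSeq windows from 250 bases before to 50 after a gene start (GRCm38.p6) held 8 of the 9 genes. They were searched on both strands for the ISRE letters GAAANNGAAA, and 5 genes (Ifit1, Ifit3, Isg15, Stat2 and Bst2) had at least 1 match, some of them overlapping. The stretches with these matches are printed 5′ to 3′ on the strand of the gene, with the fixed letters in capitals; TTTCNNTTTC is the same element read on the opposite strand.
Isg15 (chr4:156200855-156200916, minus strand): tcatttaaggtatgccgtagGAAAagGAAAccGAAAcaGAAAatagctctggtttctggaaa
Bst2 (chr8:71537567-71537622, minus strand): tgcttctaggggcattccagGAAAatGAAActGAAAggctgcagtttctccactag
Stat2 (chr10:128270256-128270305, plus strand): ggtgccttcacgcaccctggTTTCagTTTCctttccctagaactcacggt
Ifit3 (chr19:34583353-34583436, plus strand): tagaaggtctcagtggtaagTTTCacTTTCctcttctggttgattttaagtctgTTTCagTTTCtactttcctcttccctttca
Ifit1 (chr19:34640765-34640833, plus strand): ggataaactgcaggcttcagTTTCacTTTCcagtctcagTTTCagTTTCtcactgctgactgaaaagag

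In Isg15, 3 overlapping matches began at -78, -72 and -66 from the gene start, as a run of 4 GAAA blocks. Bst2 had 2 overlapping matches at -130 and -124, Ifit3 had 2 at -156 and -122, Ifit1 had 2 at -104 and -85, and Stat2 had 1 at -222. The letters occurred in 5 of 8 of these genes (62.5%), in 3.99% of all 27025 genes with a window, in 3.27% of the 8221 with a mean of at least 1 FPKM, and in 22 of 53 other antiviral effector and ISG15 conjugation genes (41.5%). The GAS letters TTCNNNGAA, also searched on both strands, were found in Bst2 at -136 and in Ifit2 at -241, and in 9.55% of all genes. The windows of Irf7, Irf9 and Ifit2 held no ISRE match of these letters. A match is a string of letters and not a measured binding site.

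**Figure D1:**
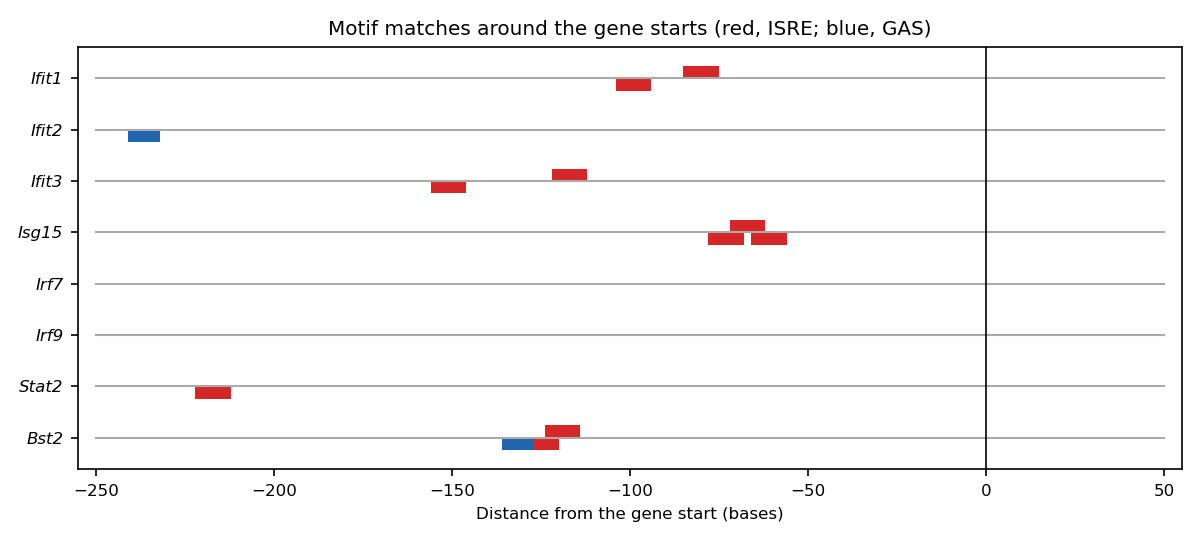
Matches to the ISRE letters (red) and the GAS letters (blue) along the promoter windows of 8 interferon-stimulated genes, by distance in bases from the gene start at 0. The 3 overlapping matches of Isg15 lie nearest to a start, at -78 to -66, and Irf7 and Irf9 have no match.

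With exosomes in 0.2% FBS, transcripts of 8 of the 9 genes were higher in each exosome library than in the control, beside 55.2% of all genes, and Ifit2 was not. Isg15, Ifit3, Ifit1 and Irf9 rose by the limma test, between 0.96 and 1.22 on the log2(FPKM + 1) scale, beside 8.20% of all genes, and no gene was called under 2 other treatments of low values. In 2% HS, the exosome library had higher FPKM of Ifit1 (2.07-fold) and Ifit3 (2.83-fold), and for the other 7 the ratio lay between 0.863 and 1.29. The 2% HS library without added exosomes held more of each of the 9 transcripts than the 0.2% FBS library, beside 53.7% of all genes. The plot of FPKM by library shows all values.

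**Figure D2:**
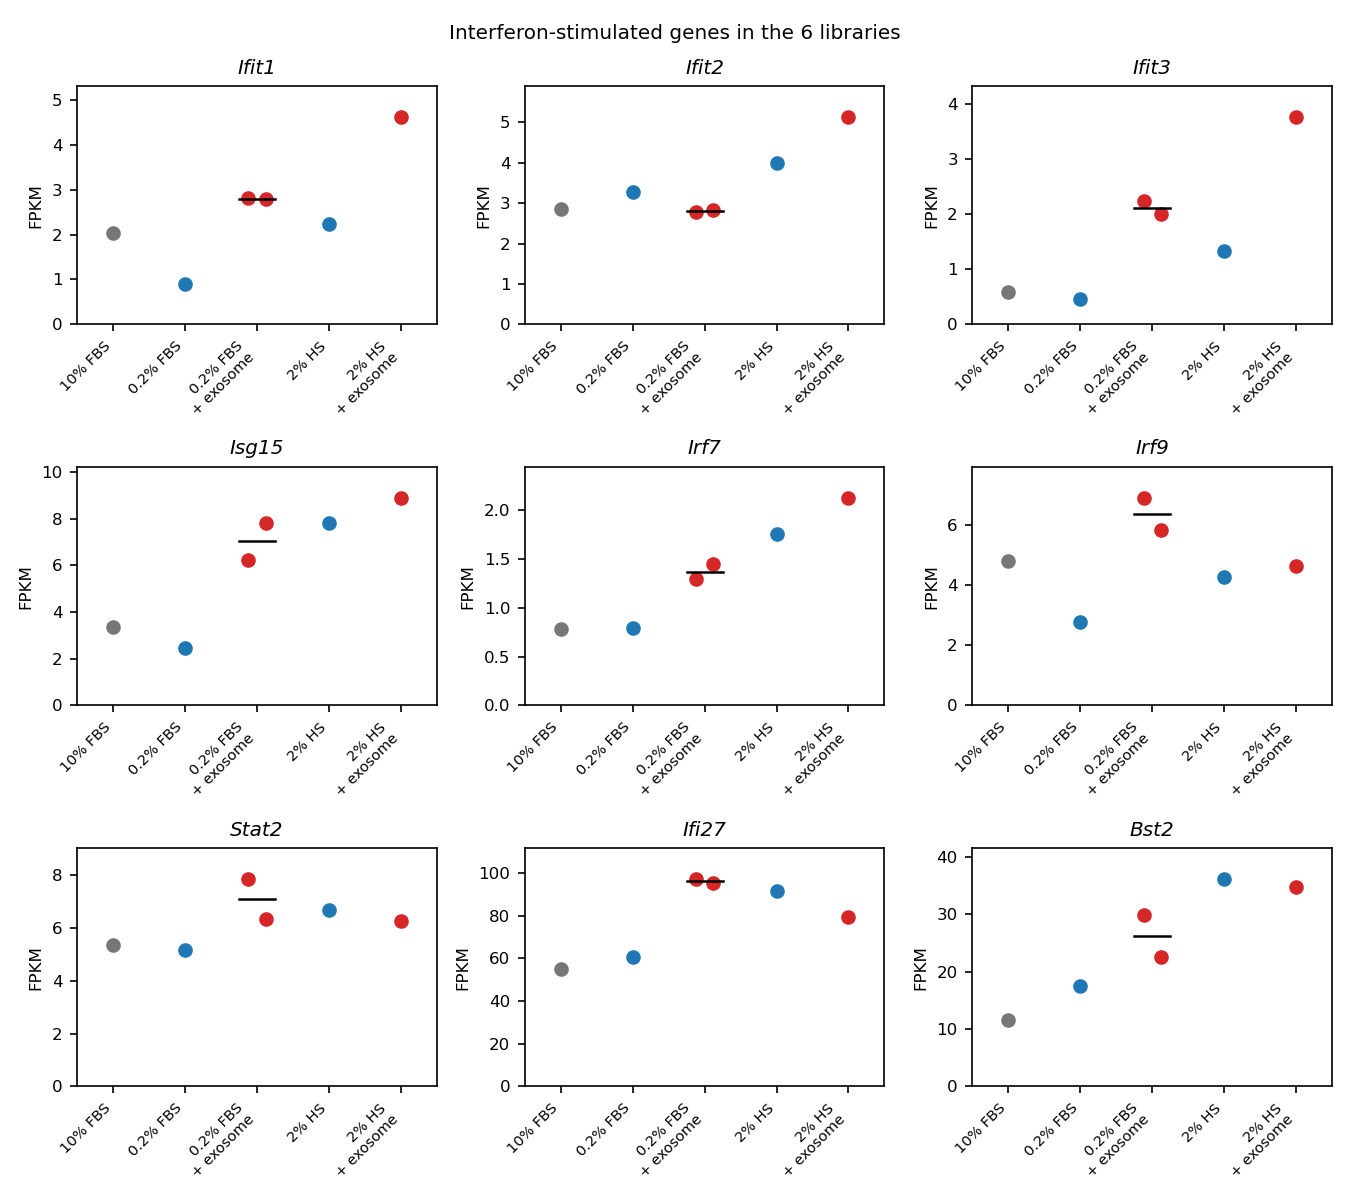
FPKM of each of the 9 genes (vertical axis, from 0, its own scale for each gene) in the 6 libraries, with 1 point per library, grey for 10% FBS, blue for differentiation medium and red for medium with exosomes, and a bar at the mean of the 2 libraries of 0.2% FBS + exosome. Ifit1, Ifit3, Isg15, Irf9 and Stat2 are lowest in 0.2% FBS, and Ifit1, Ifit2, Ifit3, Isg15 and Irf7 are highest in 2% HS + exosome.

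Stat2, Irf9 and Irf7 encode regulators of the response. Irf9, the DNA-binding subunit of ISGF3, had 2.79 FPKM in the 0.2% FBS control, 6.90 and 5.85 with exosomes in that medium, 4.80 in 10% FBS, 4.26 in 2% HS and 4.65 in 2% HS + exosome. Both exosome libraries of 0.2% FBS thus stood above the other 4, and the 0.2% FBS control stood alone at the bottom. The FPKM ratios to that control were 2.48 and 2.10, against 1.09 between the 2% HS libraries.

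Stat2, a subunit of ISGF3, had the narrowest span of the 9. It was at 5.16 FPKM in 0.2% FBS, 7.86 and 6.35 in the 2 libraries with exosomes, 5.35 in 10% FBS, 6.70 in 2% HS and 6.29 in 2% HS + exosome. Only replicate 1 of 0.2% FBS + exosome exceeded the 2% HS library, and the highest library held 1.52 times the FPKM of the lowest. The exosome libraries of 0.2% FBS were 1.52 and 1.23 times their control, and that of 2% HS was 0.938 times its own.

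Irf7, the factor that drives interferon alpha genes, was the lowest of the 3 regulators. It had 0.796 FPKM in 0.2% FBS, 0.778 in 10% FBS, 1.30 and 1.45 in 0.2% FBS + exosome, 1.76 in 2% HS and 2.13 in 2% HS + exosome. The libraries of 0.2% FBS and 10% FBS, both without added exosomes, were nearly equal, and both 2% HS libraries lay above all libraries in FBS. The ratios with exosomes were 1.63 and 1.82 in 0.2% FBS and 1.21 in 2% HS.

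The Ifit genes encode tetratricopeptide proteins that bind foreign RNA and impede its translation. Ifit1, which recognises RNA without the cap methylation of host mRNA, was at 0.888 FPKM in 0.2% FBS, 2.81 and 2.80 in 0.2% FBS + exosome, 2.03 in 10% FBS, 2.23 in 2% HS and 4.62 in 2% HS + exosome. Ifit3, which binds and stabilises IFIT1 in human cells, was at 0.452 FPKM in 0.2% FBS, 2.24 and 2.00 in 0.2% FBS + exosome, 0.593 in 10% FBS, 1.33 in 2% HS and 3.77 in 2% HS + exosome. For both genes each exosome library lay above every library without added exosomes, growing cells included, and Ifit3 had the widest span of the 9, with its highest library at 8.35 times its lowest. The FPKM ratios in 0.2% FBS were 3.17 and 3.15 for Ifit1 and 4.96 and 4.44 for Ifit3.

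Ifit2, their neighbour in the cluster, went a different way in 0.2% FBS. It had 3.27 FPKM in the control and 2.79 and 2.82 with exosomes, which were the lowest values of the 6 libraries, beside 2.86 in 10% FBS, 3.99 in 2% HS and 5.13 in 2% HS + exosome. The 2 libraries of 2% HS stood above all others, and the ratios with exosomes were 0.853 and 0.863 in 0.2% FBS and 1.29 in 2% HS.

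Isg15 encodes a ubiquitin-like protein that is joined to other proteins after interferon. It was at 2.44 FPKM in 0.2% FBS, 6.23 and 7.82 in 0.2% FBS + exosome, 3.34 in 10% FBS, 7.80 in 2% HS and 8.88 in 2% HS + exosome. The libraries split into 2 low ones, 0.2% FBS and 10% FBS, and 4 high ones, with 2% HS at the level of 0.2% FBS + exosome replicate 2, without added exosomes. The ratios with exosomes were 2.56 and 3.21 in 0.2% FBS and 1.14 in 2% HS.

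Bst2 (tetherin), which holds budding virus particles and vesicles at the cell surface, was at 17.4 FPKM in 0.2% FBS, 29.9 and 22.5 in 0.2% FBS + exosome, 11.5 in 10% FBS, 36.2 in 2% HS and 34.8 in 2% HS + exosome. Growing cells were lowest, and both 2% HS libraries were highest. The replicates of 0.2% FBS + exosome differed more than for the other genes, with ratios of 1.72 and 1.29 to their control.

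Ifi27, whose human counterpart is used as a marker of interferon exposure in blood, had the highest FPKM of the 9. It was at 60.6 FPKM in 0.2% FBS, 97.3 and 95.6 in 0.2% FBS + exosome, 55.1 in 10% FBS, 91.8 in 2% HS and 79.3 in 2% HS + exosome. The low libraries were again 10% FBS and 0.2% FBS. The ratios with exosomes were 1.60 and 1.58 in 0.2% FBS and 0.863 in 2% HS.

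The changes were then set on the log2(FPKM + 1) scale, which understates the change of genes near 1 FPKM, against all 10731 genes. A log2 change above 1 in each exosome library of 0.2% FBS was reached by Ifit1, Ifit3 and Isg15, 3 of the 9 genes, beside 96 of all genes (0.895%). Ifit1 passed narrowly, at 1.01 in each library. Irf9 lay just outside on this scale, at 1.06 and 0.85, though its FPKM ratios to the control were 2.48 and 2.10. With each library scaled to the same 75th percentile, Isg15 alone of the 9 passed, beside 63 of all genes (0.587%). The median change of the 9, as the mean of both libraries, was 0.66, with the smallest −0.17 (Ifit2), against a median of 0.14 over all genes. In that medium 8 of the 9 genes were higher in each exosome library by any size, beside 55.2% of all genes (45.9% after the scaling). Both libraries were compared with the same single control, so they do not give 2 independent directions.

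A limma fit with 1 mean per condition took its errors from the spread of the 2 replicates, with 1 residual degree of freedom per gene. Each gene's spread was drawn toward a trend over all genes, which carried 7.28 prior degrees of freedom. The errors are thus mostly those of the trend and not of the single gene. Ifit1, for one, had an SD of 0.0035 between replicates and an SE of 0.18. By this fit with Benjamini-Hochberg adjustment, 4 of the 9 genes rose in 0.2% FBS, beside 880 of all genes (8.20%), while 464 of all genes (4.32%) and none of the 9 fell. Isg15 changed by 1.22 ± 0.18 (SE, limma adjusted p = 0.00993), Ifit3 by 1.10 ± 0.19 (0.0143), Ifit1 by 1.01 ± 0.18 (0.0151) and Irf9 by 0.96 ± 0.18 (0.0177). Ifi27 lay at the edge with 0.66 ± 0.18 (limma adjusted p = 0.0509). The others gave 0.55 for Bst2, 0.40 for Irf7, 0.39 for Stat2 and −0.17 for Ifit2, with limma adjusted p between 0.0984 and 0.552. None of the calls was left, for these or any other genes, when values below 1 FPKM were raised to 1 or when low genes were kept in the fit, where limma adjusted p of the 9 started at 0.134 and 0.243. The scaling to the 75th percentile turned the split over all genes from 880 higher and 464 lower to 855 and 803, and left the 4 calls in place.

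**Figure D3:**
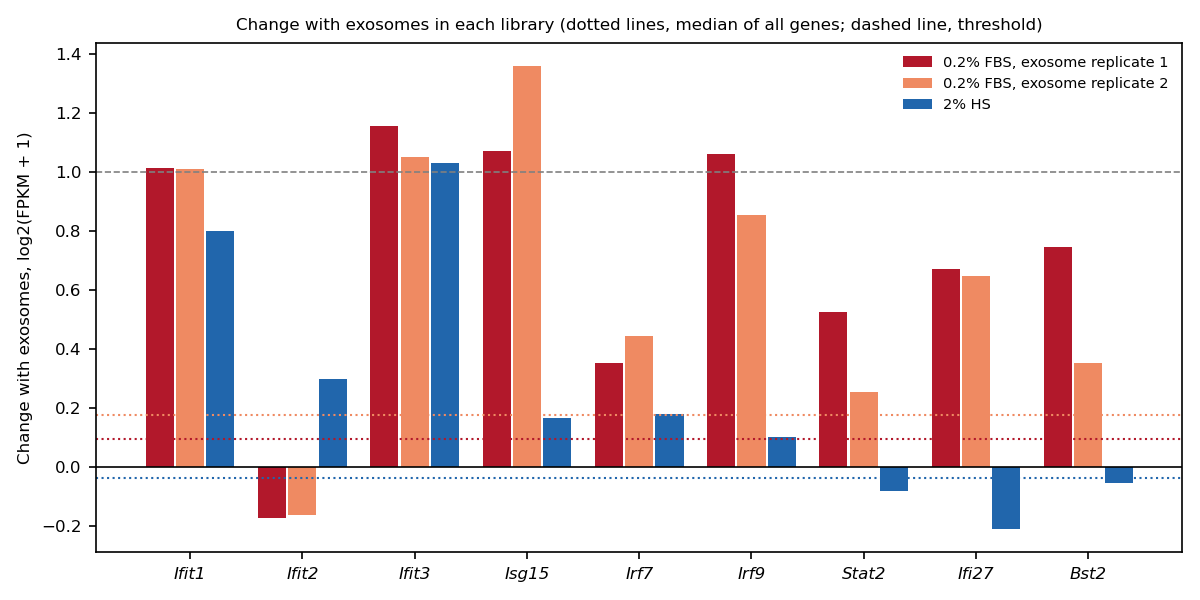
Change with exosomes of each of the 9 genes on the log2(FPKM + 1) scale, with red bars for replicate 1 and orange bars for replicate 2 of 0.2% FBS + exosome against the 1 control library, and blue bars for 2% HS, 1 library against 1. The dashed line is the threshold of 1, dotted lines are the medians of all genes, and Ifit3 is the gene past 1 in each of the 3 bars.

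In 2% HS there was 1 library on each side. Ifit3 changed by 1.03 and Ifit1 by 0.80 on the log2(FPKM + 1) scale, followed by Ifit2 at 0.30, Irf7 at 0.18, Isg15 at 0.17 and Irf9 at 0.10, while Bst2 (−0.05), Stat2 (−0.08) and Ifi27 (−0.21) were lower. Ifit3 was the 1 gene of the 9 past a change of 1, beside 0.354% of all genes, and 6 of the 9 were higher by any size, beside 41.3% (49.0% after the scaling). The median of the 9 was 0.17, against −0.04 over all genes. Taking its error from the replicates in 0.2% FBS, limma gave Ifit3 an adjusted p of 0.261 and Ifit1 one of 0.444, both among the 507 of all genes with an unadjusted p under 0.05, and the other 7 an adjusted p of 1.00, with 0.0839% of all genes called.

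The same fit tested whether each gene's exosome effect differed between 0.2% FBS and 2% HS. It was largest for Isg15, at 1.05 ± 0.28 (SE, limma adjusted p = 0.105), followed by Ifi27 at 0.87 ± 0.28 (0.154) and Irf9 at 0.85 ± 0.27 (0.150), all higher in 0.2% FBS. For Ifit3 and Ifit1 it was 0.07 ± 0.29 and 0.21 ± 0.27 (limma adjusted p = 0.924 and 0.715). Ifit2, Stat2, Ifi27 and Bst2, 4 of the 9, had opposite signs in the 2 media, near the 45.7% of all genes that did. None of the 9 passed the threshold, beside 1.16% of all genes in either direction, and 3 of the 9 and 2091 of all genes had an unadjusted p under 0.05. So none of the 9 was shown to respond differently in the 2 media, and errors of this size cannot show that they responded alike. A second fit took 1 exosome effect for both media over 5 libraries, with 2 residual degrees of freedom. It called 0 of all 10731 genes (0.00%; 709 with an unadjusted p under 0.05) and 0 of the 9, of which Ifit3 (1.07 ± 0.15), Ifit1 (0.92 ± 0.15), Isg15 (0.77 ± 0.26) and Irf9 (0.59 ± 0.22) had an unadjusted p under 0.05 and limma adjusted p between 0.407 and 0.705.

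The 2% HS and 0.2% FBS libraries without added exosomes also differed, with 1 library each. Compared with 0.2% FBS, the 2% HS library had higher FPKM of all 9 genes, 3.20-fold for Isg15, 2.95-fold for Ifit3, 2.51-fold for Ifit1, 2.21-fold for Irf7, 2.07-fold for Bst2, 1.53-fold for Irf9, 1.51-fold for Ifi27, 1.30-fold for Stat2 and 1.22-fold for Ifit2. In that comparison 53.7% of all genes were higher (43.7% after the scaling), and the median log2(FPKM + 1) difference was 0.62 for the 9 and 0.01 for all genes. Isg15 (1.36) and Bst2 (1.01) were past a difference of 1, beside 0.298% of all genes. By limma, again with the error of the 0.2% FBS + exosome replicates, 0 of all genes (0.00%) were called, 424 having an unadjusted p under 0.05 and 7 of the 9 among them. The same 0.2% FBS library is the control of the exosome comparison, so a low value in it raises both.

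Against growing cells in 10% FBS, Bst2 and Isg15 again stood out in 2% HS. Bst2 was 3.13-fold higher in FPKM and Isg15 2.34-fold, both past a log2(FPKM + 1) difference of 1 beside 1.79% of all genes. Both conditions had 1 library, so limma again took its error from the 0.2% FBS + exosome replicates. These comparisons are given under the main setting only. Bst2 was called, at 1.57 ± 0.23 (SE, limma adjusted p = 0.0416), beside 0.401% of all genes, and Isg15 was not, at 1.02 ± 0.21 (0.0854). Ifit3, Irf7 and Ifi27 were 2.25-, 2.26- and 1.67-fold higher in 2% HS, and Ifit1 (1.10-fold) and Irf9 (0.887-fold) were close to growing cells. Between 0.2% FBS and 10% FBS the median difference of the 9 was −0.04, against −0.09 for all genes, and limma called none of the 9, beside 0.0186% of all genes, with unadjusted p under 0.05 for 3 of them and for 1898 of all 10731 genes. The largest differences there were the lower Ifit1 (−0.68) and Irf9 (−0.61) and the higher Bst2 (0.56) of 0.2% FBS. Both libraries of 0.2% FBS + exosome were above 10% FBS for 8 of the 9 genes, all but Ifit2, beside 42.0% of all genes, with none of the 9 called by limma, beside 0.0652% of all genes, and 4 with an unadjusted p under 0.05, as had 1233 of all genes. The labels number the 2% HS libraries 1, the 0.2% FBS control and exosome replicate 1 as 2, and exosome replicate 2 as 3. Should the numbers stand for batches, the effect of 2% HS against 0.2% FBS cannot be told apart from that of the batch.

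Other genes of the pathway were taken from lists by role. Of 21 interferon genes, 14 were at 0 in all 6 libraries, and the highest value of the rest was 0.262 FPKM, for Ifng in 2% HS + exosome. Ifnb1 was listed above 0 in 1 library only, at 0.0453 FPKM in 2% HS. No interferon transcript had a mean of at least 1 FPKM, and none was tested.

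The receptor and kinase genes were expressed. All 8 with a mean of at least 1 FPKM were higher in each exosome library of 0.2% FBS, beside 55.2% of all genes, with a median change of 0.44. In 2% HS, 1 of the 8 was higher with exosomes, beside 41.3% of all genes, and 7 were lower, with a median of −0.16. Ifnar1 rose from 6.21 FPKM in 0.2% FBS to 10.2 and 11.2 with exosomes (0.70 ± 0.16, limma adjusted p = 0.0303), and it was the 1 gene of the list called, beside 8.20% of all genes. Its partner Ifnar2 had 24.2 FPKM in the control and 28.3 and 30.7 with exosomes. In the same order Jak1 had 30.4, 41.9 and 44.9 FPKM, Jak2 had 4.11, 7.38 and 6.19, and Tyk2 had 5.36, 6.29 and 6.29, and none of these 4 was called. The interferon gamma receptor genes Ifngr1 and Ifngr2 changed by 0.36 and 0.38 and Il10rb by 0.51, while Ifnlr1, the interferon lambda receptor, was at or near 0.

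Of the other STAT and IRF genes, 5 had a mean of at least 1 FPKM, all of them higher in each exosome library of 0.2% FBS, beside 55.2% of all genes, with a median change of 0.55 there and −0.10 in 2% HS. Irf1, which acts downstream of interferon gamma and NF-kB, rose from 18.8 FPKM to 40.4 and 32.2 (0.91 ± 0.18, limma adjusted p = 0.0222), and was at 25.5 and 20.3 in 2% HS. Stat3, Irf2 and Irf3 had changes of 0.47, 0.55 and 0.13 that were not called. Irf8 was at 0 in every library, and Irf4 and Irf5 had means below 1 FPKM.

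The list of antiviral effectors without the 9 genes held 58 entries, 30 with a mean of at least 1 FPKM. In 0.2% FBS, 28 of the 30 were higher in each exosome library (55.2% of all genes were) and 1 was lower in each, with a median change of 0.66. In 2% HS, where 41.3% of all genes were higher, 9 of the 30 were higher and 21 lower, with a median of −0.14. The entries with lower means are not in these counts, and Mx1, Oas2 and Rsad2 were at most 0.159, 0.344 and 0.336 FPKM. Most of these low entries were higher with exosomes in 2% HS, as Mx2 (0.384, then 1.01 FPKM) and Ifi44 (0.438, then 0.878). Some, as Oas1a and Epsti1, were lower, and no share of all low genes was taken. In 0.2% FBS, 11 of the 30 were called higher by limma, beside 8.20% of all genes, and none lower. Those with a change above 1 in each library were 6, beside 0.895% of all genes. Ifitm3, Ly6e and Plscr1 passed narrowly in replicate 1 (1.01, 1.03 and 1.06), and Oasl2 in replicate 2 (1.01). Lgals3bp and Ifi27l2a reached 1.14 or more in each. The count for this list under the scaling to the 75th percentile is not given. The extent of the rise of the 6 is seen in FPKM. Ifitm3, which blocks virus entry at endosomes, went from 231 to 468 and 630, Ly6e from 42.3 to 87.5 and 107, Lgals3bp from 21.0 to 49.3 and 53.3, Ifi27l2a from 11.6 to 29.7 and 26.7, Plscr1 from 7.33 to 16.4 and 18.8, and Oasl2 from 0.359 to 1.98 and 1.73.

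In 2% HS their changes differed in sign. Ifi27l2a, a relative of Ifi27, was at 32.1 FPKM in 2% HS and 17.0 in 2% HS + exosome, a change of −0.88 where Ifi27 had −0.21. Oasl2, a 2′-5′ oligoadenylate synthetase-like protein, was at 1.86 and 2.41. Of the ISG15 conjugation genes, Ube2l6, the conjugating enzyme, rose in 0.2% FBS from 4.26 FPKM to 8.22 and 9.66 (0.91 ± 0.17, limma adjusted p = 0.0182), and Uba7 had a change of 0.61 that was not called. In 2% HS both were lower with exosomes, Ube2l6 at 6.84 and then 5.61 FPKM and Uba7 at 0.966 and then 0.634, with a median change of −0.26. Usp18, which removes ISG15 and has a mean below 1 FPKM, was at 0.138 in 0.2% FBS, 0.271 and 0.320 with exosomes, 0.476 in 2% HS and 1.12 in 2% HS + exosome.

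The remaining lists stand beside the same shares of all genes in 0.2% FBS, 55.2% higher in each exosome library and 8.20% called higher. Of 15 nucleic acid sensing genes in 0.2% FBS, 12 were higher in each exosome library, 1 was lower and 4 were called higher, with a median of 0.42. In 2% HS, where 41.3% of all genes were higher, 7 of these 15 were higher and 8 lower, with a median of −0.04. The 2 interferon gamma targets with a mean of at least 1 FPKM had opposite signs in the 2 media, beside 45.7% of all genes. Irgm1 changed by 0.51 in 0.2% FBS and −0.20 in 2% HS, and Igtp by −0.51 and 0.54. Of 6 feedback inhibitors in 0.2% FBS, 4 were higher, 1 was lower and 2, Socs1 and Socs3, were called higher. In 2% HS, 3 of the 6 were higher and 3 lower. Socs3, an inhibitor of JAK signalling, went from 11.1 FPKM in 0.2% FBS to 30.3 and 63.3 with exosomes. It was at 70.1 in 10% FBS, 17.0 in 2% HS and 15.7 in 2% HS + exosome. The calls of all these lists rest on the same fit as above, in which none is left under the 2 other treatments of low values.

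**Figure D4:**
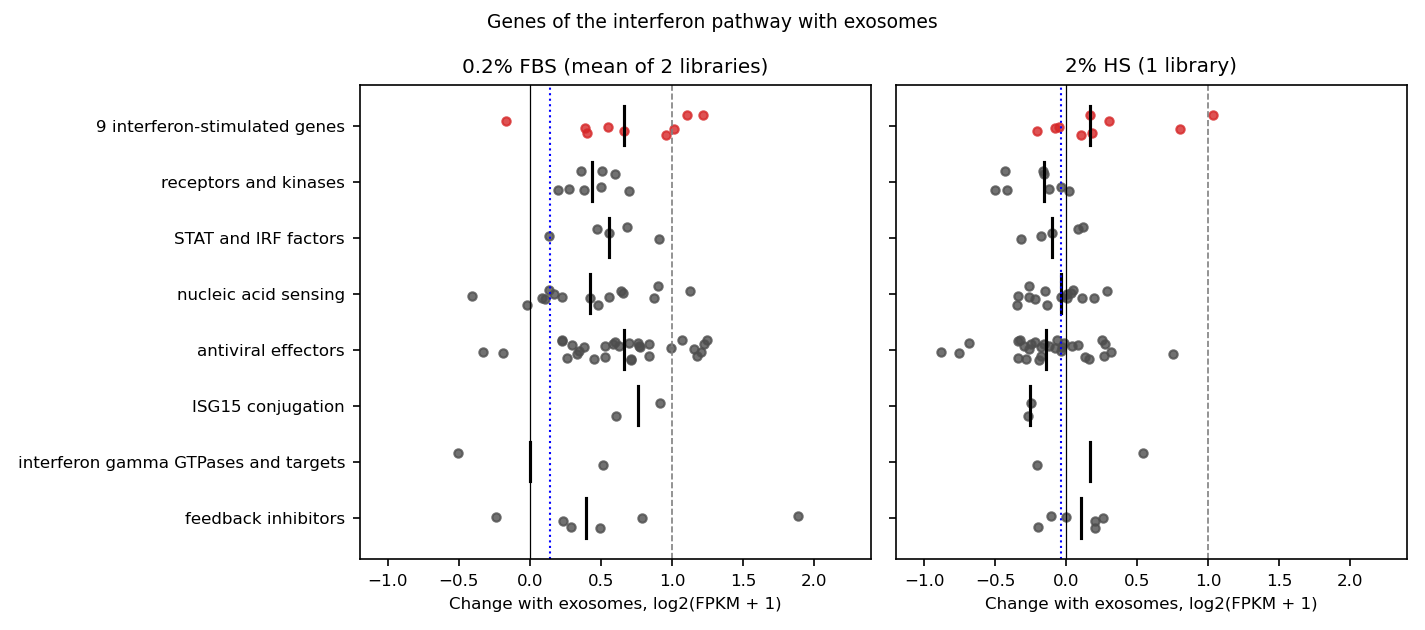
Change with exosomes on the log2(FPKM + 1) scale of the 9 genes (red) and of the other pathway genes averaging 1 FPKM or more (grey, 1 point per gene), in 0.2% FBS as the mean of 2 libraries (left) and in 2% HS as 1 library (right). Short bars are list medians, the dotted blue line is the median of all genes and the dashed line the threshold of 1, and the medians of the 9 genes are 0.66 and 0.17.

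Markers of other cell types were measured beside these results. Of 8 leukocyte marker genes, 3 had a mean of at least 1 FPKM (Cd14, Cd68 and Lyz2), and the defining marker Ptprc was at most 0.0119 FPKM. Their summed level was 5.97 FPKM in 0.2% FBS and 8.89 and 9.30 with exosomes, and 6.62 and 5.36 in the 2% HS libraries, Cd14 being called higher in 0.2% FBS (0.80 ± 0.18, limma adjusted p = 0.0266). Most of the rise of that sum in 0.2% FBS was Cd14 (2.87 FPKM, then 5.33 and 6.13 with exosomes). Cd68 went from 1.63 to 1.95 and 2.00 FPKM, and Lyz2 from 1.17 to 1.46 and 1.04. Itgam, below 1 FPKM, was lower in each exosome library (0.211, then 0.107 and 0.0330). The 3 endothelial markers were at 0.114 FPKM or below. The summed level of the 3 platelet markers was 5.14 FPKM in 0.2% FBS and 10.6 and 21.6 with exosomes, most of it Ppbp (3.42, 7.86 and 17.0 FPKM), against 4.05 and 5.14 in the 2% HS libraries. Ppbp was past a change of 1 in each exosome library of 0.2% FBS (1.01 and 2.03), beside 0.895% of all genes. It was called, at 1.52 ± 0.35 (SE, limma adjusted p = 0.0293), and 8.20% of all genes stand beside this call and that of Cd14. Pf4 went from 0.559 to 1.46 and 3.59 FPKM and was not called. Itga2b did not share the rise, with 1.17 FPKM and then 1.23 and 1.06. The part of other cell types in the results was not tested.

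The 9 genes did not share 1 profile. Their mean standardised profile over the 6 libraries stood at −1.13 in 0.2% FBS, −0.90 in 10% FBS, 0.50 and 0.27 in 0.2% FBS + exosome, 0.39 in 2% HS and 0.86 in 2% HS + exosome. Each gene's Pearson r with this profile, to which it contributed itself, was 0.964 for Isg15, 0.940 for Ifit3, 0.933 for Irf7, 0.879 for Bst2, 0.872 for Ifit1, 0.842 for Ifi27, 0.808 for Stat2, 0.610 for Irf9 and 0.476 for Ifit2. Irf9 and Ifit2 were thus the least like the mean of the 9.

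Among the 10722 other genes compared over these 6 libraries, the 10 with the highest r to the profile were Apol9a (0.992), Oasl2 (0.988), Pigf (0.981), Tmem255a (0.976), Atf6b (0.969), Me3 (0.964), Rtp4 (0.962), Poglut1 (0.957), Dnajc18 (0.957) and Sec11a (0.956), and 32 genes exceeded 0.9. With 6 libraries that share their medium and treatment this is a description only. Apol9a was at 4.52 FPKM in 10% FBS, 3.67 in 0.2% FBS, 10.1 and 8.92 in 0.2% FBS + exosome, 10.6 in 2% HS and 11.5 in 2% HS + exosome. Apol9a and Oasl2 had changes of 1.17 and 1.07 with exosomes in 0.2% FBS, while Pigf, for all its likeness in shape, changed by 0.09.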

How the data were processed

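C2C12 RNA was sequenced in 6 libraries. Labels name a miRNeasy Micro kit for the RNA, the study's methods an RNeasy Micro kit, and libraries were made with a stranded mRNA kit. The authors trimmed reads with cutadapt 1.9.1, mapped them to mm10 with TopHat2 2.1.0 and computed FPKM with Cufflinks. They deposited FPKM values, 1 column per library. The annotation and strand setting are not given in the sources used here, and no counts were used.

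Values were compared as log2(FPKM + 1). Genes whose mean reached 1 FPKM entered limma 3.58.1 (R 4.3.3, eBayes with trend, Benjamini-Hochberg over all 10731 genes, threshold 0.05). The fits were also run on simulated data with a common spread for all genes and the same effect in both media. Those settings are simpler than these data, so that run does not vouch for the calls here. The study's threshold was a log2 fold change above 1 or below −1, from FPKM values. Here the value of 1 was applied to log2(FPKM + 1), which is not the same scale. The limma fit is not the study's method. Estimated depth assumed 200-base fragments on 2442 genes with 1 transcript. Low FPKM values lay within 0.1 of a whole read in 74.3 to 77.0% of cases, against 20% if spread evenly, so the reads were not recovered and no intervals were computed. Tables of likeness used Pearson r in Python 3.11.15.

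The 9 genes, gene lists, tests and naming rule were chosen with earlier results of these data known. Ifit1, Ifit3, Irf9 and Isg15 are in the study's own list of changed genes, made from these libraries, and are not independent evidence of direction. Named were the 9 genes, listed genes past 1 in each exosome library of 0.2% FBS, ligand, receptor, kinase, STAT and IRF genes (some are not reported here), and the 10 genes most like the profile of the 9. Ube2l6, Uba7, Usp18, Socs1, Cd14 and the other marker genes given by value were named after their values were seen. So were Mx1, Mx2, Oas1a, Oas2, Rsad2, Ifi44, Epsti1, Igtp and Irgm1. Alternatives were another pseudocount (0.1), scaling to the 75th percentile, values below 1 FPKM raised to 1, no filter, no trend, leaving out each replicate and, added after seeing the data, the label number as a replicate block. Promoters and positions came from RefSeq and GENCODE.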

Additional observations from a re-analysis of the deposited data

Results flagged for a closer look

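For 4 of the 9 genes, both exosome libraries of 0.2% FBS moved one way from their control and the exosome library of 2% HS moved the other way. This is near the share of all 10731 genes that did so, 45.7%. The exosome effect in 0.2% FBS minus that in 2% HS, on the log2(FPKM + 1) scale, was −0.47 for Ifit2, 0.47 for Stat2, 0.87 for Ifi27 and 0.60 for Bst2. The test of the difference itself gave limma adjusted p of 0.362, 0.385, 0.154 and 0.311, so none was past the threshold. The 2% HS side has 1 library on each arm, and its error was taken from the 2 replicates in 0.2% FBS.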

How the results depend on the processing

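The count of the 9 genes with a change above 1 in each exosome library of 0.2% FBS was 3, was 1 (Isg15) with each library scaled to the same 75th percentile, and was 3 or 4 otherwise. Their median change was 0.66, became 0.55 with the scaling, and was 0.65 to 0.75 with either exosome replicate left out. Limma called 4 of the 9 with 1 mean per condition. It called 0 when values below 1 FPKM were raised to 1 (5 with an unadjusted p under 0.05) and 0 without a filter (6 with an unadjusted p under 0.05, 16450 genes tested), 5 with a pseudocount of 0.1, and 4 with the scaling or without the trend. Without a replicate this fit has no residual degrees of freedom and gave no value. The fit of 1 effect for both media called 0 under every setting, with 2 to 4 of the 9 at an unadjusted p under 0.05. The cause of these changes was not tested. Under the pseudocount of 0.1, the scaling and the raising of low values, no change of a single gene turned its direction in either medium. However, 13 of 27 values in 0.2% FBS and 11 of 27 in 2% HS moved by more than the spread between the 0.2% FBS + exosome replicates. That spread was borrowed for 2% HS, which has no replicates. Ifit3 moved from 1.10 to 2.01 in 0.2% FBS with the pseudocount of 0.1. A fit added after seeing the data took the label number as a replicate block with exosome, which rests on 2 pairs and 1 residual degree of freedom. It called 0 of the 9 and 0 of all genes, with Ifit1 and Ifit3 among 296 genes at an unadjusted p under 0.05. The labels do not say that a number marks a shared culture or day. Low read numbers limit Ifit3, Irf7, Isg15 and Ifit1 in 0.2% FBS most, and 4 of the 5 conditions have no replicate.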
